A study of Mus musculus with 6 samples.

Results

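The genes described here are 39 members of the cell death machinery: the Bcl2 family, the caspases, and the inhibitors of apoptosis with their antagonists and the death receptor Fas. They were chosen by gene name, and all 39 were among the 54532 genes of the deposited table. Transcript levels had been measured by RNA sequencing in 6 libraries from STRA8+ cell suspensions of mouse testis. The knockout group of 3 libraries carried the genotype label knockout, with conditional knockout as the treatment, and the control group of 3 libraries carried the genotype label Cre. The labels call the cells of both groups germ cells. They do not give the deleted gene, the driver of the Cre, the strain, the age, or how many animals gave each suspension, so the p-values speak only for the spread among these 6 libraries, part of which may be technical. Their extraction text speaks of retinas where all other fields say testis. Bcas2, a splicing factor named in the title, had 4.78, 4.38 and 5.40 FPKM in the knockout libraries, against 19.8, 19.3 and 20.5 FPKM in the control libraries. Hnrnph1, an RNA-binding protein also named there, was higher, with 128.8, 155.8 and 135.7 FPKM in the knockout libraries, against 61.2, 67.5 and 62.7 FPKM in the control libraries.

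In the mitochondrial pathway of apoptosis, the proteins Bax and Bak1 open pores in the outer mitochondrial membrane and release cytochrome c, which assembles with Apaf1 into the apoptosome and activates Casp9. Prosurvival relatives such as Bcl2l1 and Mcl1 hold the pore formers in check, and the BH3-only proteins relieve that check. Inhibitors of apoptosis such as Xiap block active caspases until Diablo or Htra2, released from mitochondria, bind them. In the testis, germ cells die in large numbers in normal development, mice without Bax or Bcl2l2 are sterile as males, and a second cytochrome c, Cyct, replaces the somatic form, Cycs, as spermatocytes and spermatids mature.

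The promoters of the genes with the clearest contrast are shown first: the pair of cytochrome c genes, which moved in opposite directions, Bcl2l14, which had the lowest fold change of the 39, and Bax, which had the highest of those tested. Each is 250 bases before and 50 bases after an annotated start, 5′ to 3′ on the strand of the gene, from RefSeq on GRCm38.p6. Capitals mark matches, on either strand, to the cyclic AMP response element TGACGTCA, the MYB core CNGTTA, the STRA8 motif CNCCTCAG or the p53 half-site consensus; no match in these sequences overlaps another.
Cyct (chr2:76360404-76360703, minus strand): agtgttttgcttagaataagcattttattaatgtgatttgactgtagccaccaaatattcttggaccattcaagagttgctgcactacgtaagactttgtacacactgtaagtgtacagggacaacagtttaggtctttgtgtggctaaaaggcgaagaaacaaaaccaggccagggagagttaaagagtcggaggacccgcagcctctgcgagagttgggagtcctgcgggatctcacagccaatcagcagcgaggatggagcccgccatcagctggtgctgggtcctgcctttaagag
Cycs (chr6:50566520-50566819, minus strand): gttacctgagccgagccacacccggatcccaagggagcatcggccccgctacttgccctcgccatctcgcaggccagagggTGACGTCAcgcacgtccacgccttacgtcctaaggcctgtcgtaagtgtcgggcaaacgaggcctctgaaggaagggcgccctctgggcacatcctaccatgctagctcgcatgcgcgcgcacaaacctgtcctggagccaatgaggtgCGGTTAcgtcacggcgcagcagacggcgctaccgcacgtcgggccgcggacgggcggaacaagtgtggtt
Bcl2l14, first start (chr6:134396079-134396378, plus strand): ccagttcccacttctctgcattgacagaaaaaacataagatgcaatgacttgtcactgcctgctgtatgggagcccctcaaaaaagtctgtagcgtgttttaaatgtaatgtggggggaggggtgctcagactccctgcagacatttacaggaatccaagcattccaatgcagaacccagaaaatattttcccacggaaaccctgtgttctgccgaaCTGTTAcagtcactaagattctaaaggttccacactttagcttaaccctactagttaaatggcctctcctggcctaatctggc
Bcl2l14, second start (chr6:134414178-134414477, plus strand): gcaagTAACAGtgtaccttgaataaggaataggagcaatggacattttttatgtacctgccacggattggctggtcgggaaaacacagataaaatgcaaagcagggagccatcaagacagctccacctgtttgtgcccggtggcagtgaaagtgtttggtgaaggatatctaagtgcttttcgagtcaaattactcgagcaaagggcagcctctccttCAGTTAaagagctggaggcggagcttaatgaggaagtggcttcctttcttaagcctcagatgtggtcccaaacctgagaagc
Bax (chr7:45466849-45467148, minus strand): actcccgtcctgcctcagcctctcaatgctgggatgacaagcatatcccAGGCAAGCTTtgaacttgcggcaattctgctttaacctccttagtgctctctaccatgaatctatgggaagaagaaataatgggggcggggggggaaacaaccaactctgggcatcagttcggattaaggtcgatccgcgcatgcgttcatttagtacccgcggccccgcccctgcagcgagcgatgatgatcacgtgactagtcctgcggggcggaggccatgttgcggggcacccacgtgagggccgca

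The Cycs window held the cyclic AMP response element, 169 bases before the start, and a MYB core, while the Cyct window held none of the 4 motifs. Both Bcl2l14 windows held a MYB core close to the start, at 33 and 32 bases before it. The Bax window held a p53 half-site 201 bases before the start; Bax is a known target of p53. Among all 32851 promoters of the same length, 1.79% held the cyclic AMP response element, 23.3% the MYB core, 7.94% the STRA8 motif and 8.36% the p53 half-site. Promoters were found for 35 of the 39 genes, and Birc2 was the other gene with the cyclic AMP response element, Fadd the single gene with the STRA8 motif, and Birc2, Bmf and Fasl the others with the p53 half-site. The MYB core lay in 11 of the 48 promoters of these 35 genes: in Bbc3, Bcl2l1, Bcl2l14, Birc2, Birc3, Casp8, Cycs, Diablo, Fadd and Fasl. These matches describe letters in a window and were chosen with the expression values known.

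The 39 genes did not move as one. Of the 31 with a mean of at least 1 FPKM (fragments per kilobase of gene and 1000000 fragments, as deposited), 18 rose, 9 fell and 4 were not called by limma at an adjusted p of 0.05. Over all 16791 genes tested, 86.6% were called, 36.2% higher and 50.4% lower in the knockout, so a call by itself does not set a gene apart in this comparison. Of the 31, 4 (Bmf, Apaf1, Casp8 and Birc3) passed the filter through the knockout mean alone and 2 (Bcl2l14 and Casp1) through the control mean alone. For this reason all 39 were also fitted without the filter, where the named genes kept their calls. Then 20 rose, 10 fell and 9 were not called, against 21.6% higher and 32.8% lower of 37309 genes, and the median log2 fold change of the 39 was 0.46, against -0.077 over all genes. Every knockout library lay above every control library for 20 members and below for 10, and 9 overlapped. Of all genes with a value above 0, 24.7% and 35.5% were so separated, and of the 16791 genes tested, 36.9% and 51.1%. Of the members tested, those that rose lay at the 69.0 (Fadd) to 99.2 (Bax) percentile of the log2 fold changes of all genes. Bcl2l14 lay at the 1.83 percentile, but the other 8 that fell lay between 26.0 (Cyct) and 44.4 (Birc2), with 26.0% or more of all genes below each of them.

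The scaling of the libraries bears on these directions. The recovered reads totalled 14770320 to 15204127 in the knockout libraries and 14532453 to 16963019 in the controls, but the divisor behind the FPKM was 1.37 to 1.42 times that total in the knockout and 0.691 to 0.774 times in the controls. Over all genes tested, the deposited values gave a median log2 fold change of -0.41. It was 0.71 with FPKM rescaled to sum to 1000000, 0.42 with reads so rescaled and 0.53 under quantile normalization. Members called higher and lower numbered 23 and 6 with rescaled FPKM (54.2% and 36.2% of all genes), 22 and 7 with rescaled reads (50.6% and 38.9%) and 23 and 7 under quantile normalization (52.1% and 36.8%). The same call held under all 4 scalings for 18 members that rose (all those called higher as deposited) and 6 that fell. The call differed between scalings for 7: Mcl1, Bcl2l13, Bcl2l11, Bbc3, Casp1, Birc2 and Diablo. Fold changes below were taken on log2(FPKM + 0.5), so changes of low genes are understated, and ± gives the moderated standard error from limma.

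**Figure D1:**
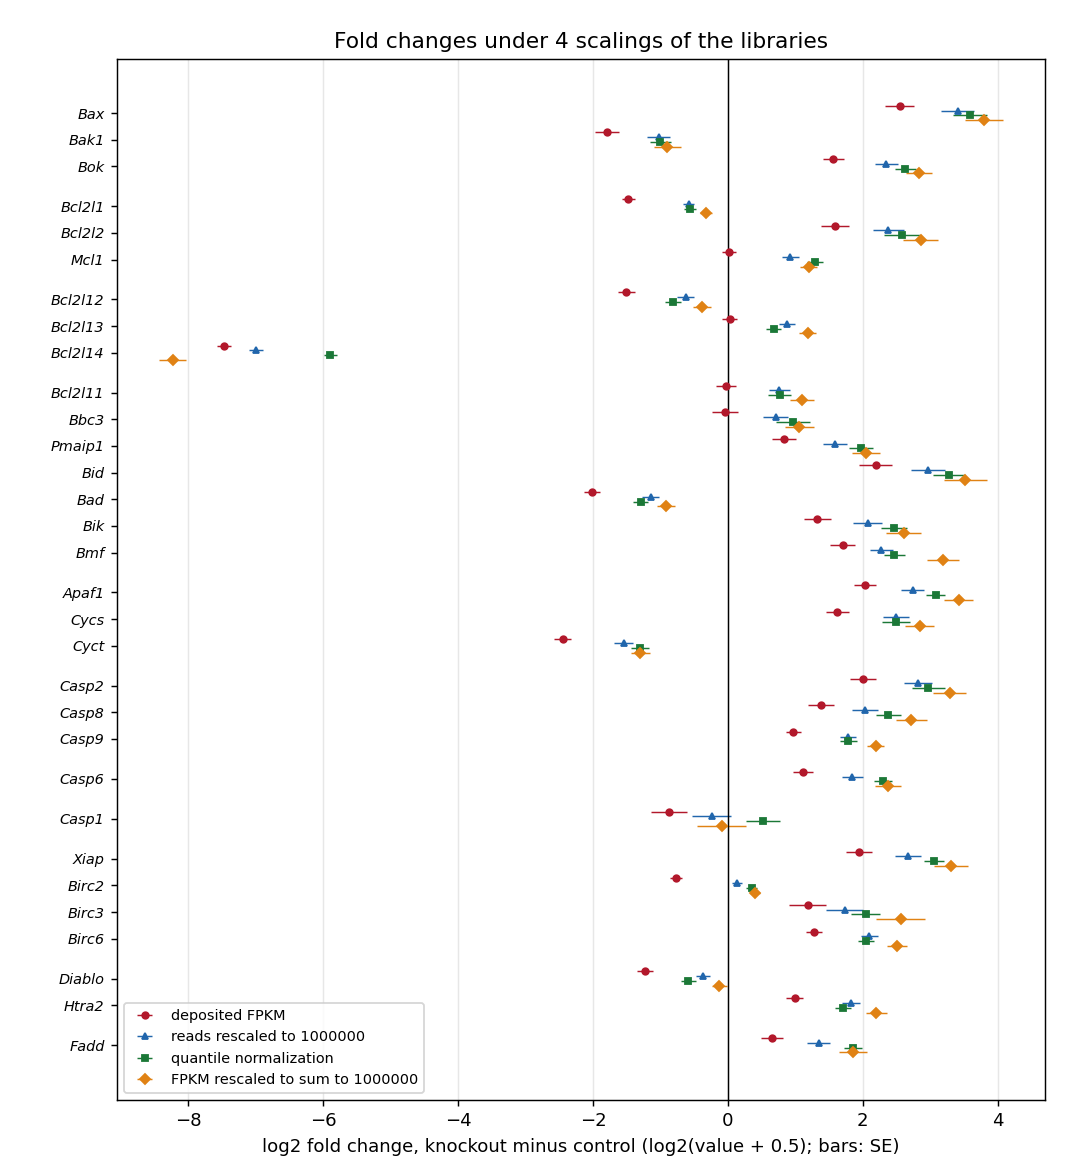
Log2 fold change, knockout minus control, of the 31 genes tested (rows, in order of role) under the deposited FPKM and 3 other scalings; bars are standard errors. The other 3 scalings lie to the right of the deposited value for every gene, save rescaled FPKM for Bcl2l14, and the points of Bcl2l11, Bbc3, Casp1 and Birc2 lie on both sides of 0.

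The mix of cells differed as well, and in bulk libraries fewer cells of a type and less RNA per cell cannot be told apart. All 12 spermatid markers were lower in the knockout, with a summed level of 5.22 to 9.18 FPKM in the knockout and 18414 to 21431 FPKM in the controls. All 12 pachytene and diplotene markers were lower too, at 76.7 to 101 FPKM in the knockout and 5774 to 7002 FPKM in the controls. Of 12 spermatogonial markers, 10 had a higher mean in the knockout, at 655 to 775 FPKM summed, against 86.0 to 139 FPKM in the controls. All 12 Sertoli markers had a higher mean, at 511 to 920 FPKM in the knockout and 122 to 288 FPKM in the controls, as did all 12 macrophage markers, at 103 to 329 FPKM in the knockout and 64.9 to 109.6 FPKM in the controls. Of the Leydig markers, 6 of 8 were lower, at 22.5 to 80.5 FPKM in the knockout and 91.1 to 151 FPKM in the controls; 4 of 9 peritubular and endothelial markers were higher, at 22.1 to 38.8 FPKM in the knockout and 16.0 to 32.5 FPKM in the controls. Of the 6 general germ cell markers, 3 were higher and 3 lower, at 1019 to 1237 FPKM summed in the knockout and 1628 to 1845 FPKM in the controls. As a share of reads their sum ran the other way, at 0.365 to 0.435% in the knockout and 0.263 to 0.289% in the controls, and the Leydig sums overlapped, at 0.0104 to 0.0232% in the knockout and 0.0113 to 0.0192% in the controls. No marker of any list was at 0 throughout a group. Each comparison below is between groups that also differ in this mix of cells, whose part in it was not tested.

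Bax (ENSMUSG00000003873, chr7:45461697-45466898 in mm10, protein-coding), the pore-forming effector, was 6.16-fold higher in the knockout. It had 28.1, 27.3 and 28.99 FPKM in the knockout libraries, against 2.84, 5.26 and 5.61 FPKM in the control libraries. The groups were far apart, and the knockout libraries were closer together than the controls. The log2 fold change was 2.55 ± 0.22, with a limma adjusted p of 1.2e-05, which placed Bax at the 99.2 percentile of all genes tested and 2.96 above their median. Bok, another effector, found mainly on membranes of the endoplasmic reticulum, also rose, with 7.81, 5.61 and 6.64 FPKM in the knockout libraries, against 1.68, 2.15 and 1.94 FPKM in the control libraries. Its log2 fold change was 1.56 ± 0.15 (limma adjusted p = 2.6e-05).

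Bak1, the mitochondrial partner of Bax, went the other way. It had 1.69, 1.19 and 1.12 FPKM in the knockout libraries, against 6.87, 4.87 and 5.80 FPKM in the control libraries, with no overlap between the groups, and a log2 fold change of -1.79 ± 0.18 (limma adjusted p = 2.7e-05). Bak1 lies wholly inside the span of Ggnbp1, a gene on the opposite strand whose exons cover 18.2% of the exonic bases of Bak1 in GENCODE M21. Ggnbp1 averaged 0.713 FPKM in the knockout and 134.7 FPKM in the controls. The sources used here do not say whether reads were counted by strand, so the control reads of the 2 genes cannot be told apart where they overlap.

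The 3 effectors summed to 36.2 ± 1.81 FPKM in the knockout and 12.3 ± 0.982 FPKM in the controls (SD, n = 3 each), and the makeup of that sum differed. Bax made up 77.9 ± 2.78% of it in the knockout and 36.6 ± 10.1% in the controls, and Bak1 3.68 ± 0.734% in the knockout and 47.8 ± 11.0% in the controls. Such shares of summed FPKM are not changed by 1 scaling factor for each library, but quantile normalization or shares of reads, in which long genes weigh more, would change them.

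Among the prosurvival genes, 1 rose, 1 fell and 1 was not called of 3 tested, against 36.2% higher and 50.4% lower of all genes. The other 2 of the group were below the filter. Bcl2l1, which encodes Bcl-xL (ENSMUSG00000007659, chr2:152780668-152831728), had 12.5, 12.9 and 11.7 FPKM in the knockout libraries, against 36.97, 32.1 and 37.2 FPKM in the control libraries. Every knockout library was below every control library. The log2 fold change was -1.48 ± 0.10 (limma adjusted p = 2.3e-06) and stayed negative, at -0.33, with FPKM rescaled to sum to 1000000. Bcl2l2, the Bcl-w gene, rose, with 8.81, 6.80 and 6.22 FPKM in the knockout libraries, against 1.50, 2.10 and 2.75 FPKM in the control libraries and a log2 fold change of 1.59 ± 0.21 (limma adjusted p = 0.00014).

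Mcl1, a short-lived prosurvival protein, had the highest mean of the prosurvival genes in both groups. It had 43.3, 37.2 and 35.1 FPKM in the knockout libraries, against 35.1, 40.1 and 39.04 FPKM in the control libraries, and the groups overlapped. Its log2 fold change of 0.014 ± 0.11 did not pass (limma adjusted p = 0.91) as deposited, and it was called higher under the other 3 scalings, with values of 0.92 to 1.29. Mcl1 took 66.0 ± 0.793% of the prosurvival sum in the knockout and 50.3 ± 3.24% in the controls, while Bcl2l1 took 21.3 ± 1.82% in the knockout and 46.8 ± 3.48% in the controls. Bcl2, the founding member of the family, had 0.131, 0.0756 and 0.169 FPKM in the knockout libraries, against 0.0109, 0.0333 and 0.115 FPKM in the control libraries, with overlap. The knockout libraries held 72 reads of Bcl2 and the controls 18. Bcl2l10 had 2 reads in the knockout and 2 in the controls, with 0.0757, 0 and 0 FPKM in the knockout libraries, against 0.0817, 0 and 0.0665 FPKM in the control libraries, too few for a comparison.

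**Figure D2:**
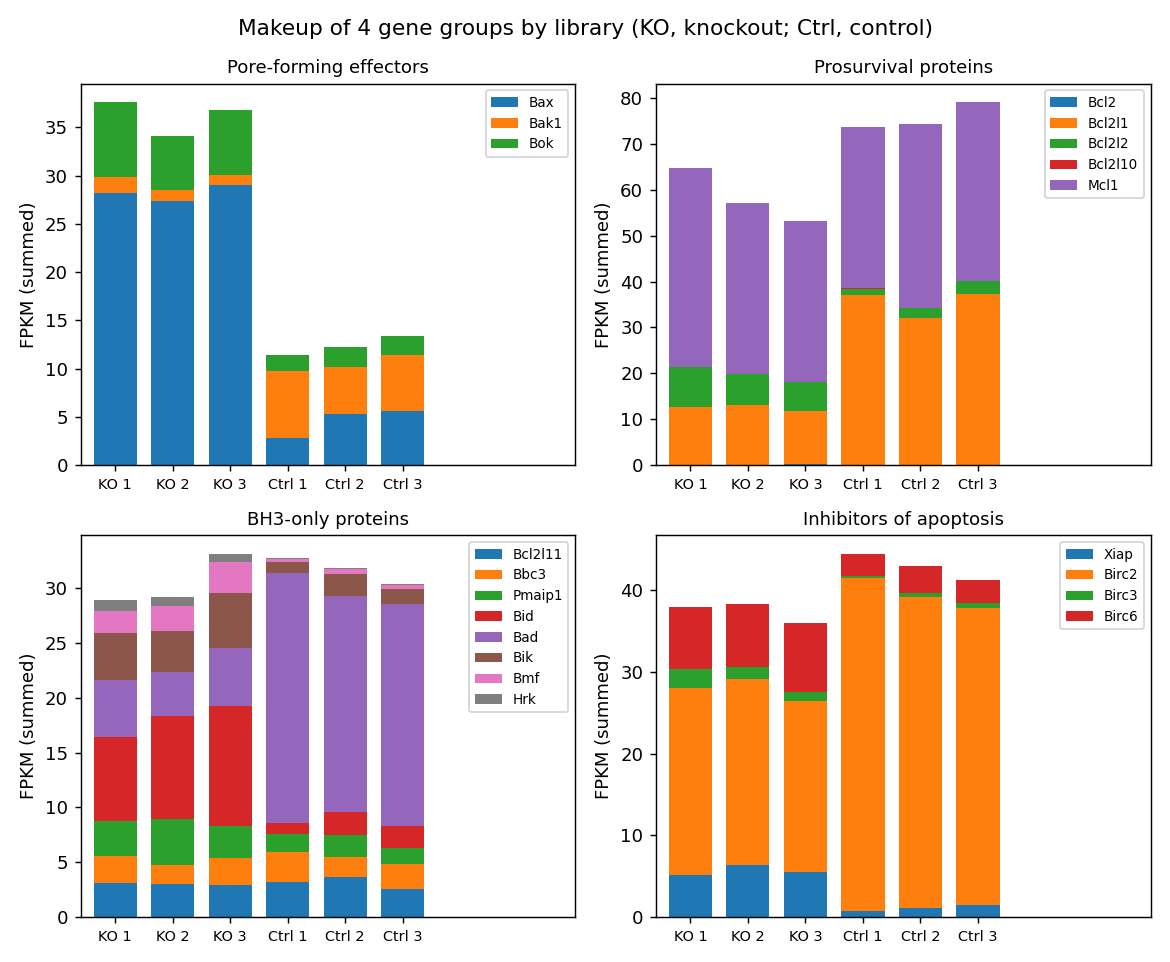
Stacked FPKM of the effectors, the prosurvival genes, the BH3-only genes and the inhibitors of apoptosis in each library, knockout libraries left of the controls. Bax fills most of the effector bars in the knockout, and Bad fills most of the BH3-only bars in the controls, at bar heights near each other (30.4 ± 2.38 and 31.6 ± 1.21 FPKM).

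The share of the effectors in the summed level of effectors and prosurvival genes was 36.7, 37.4 and 40.9% in the knockout libraries, against 13.4, 14.2 and 14.4% in the controls. The groups did not overlap, and the means differed by 24.4 percentage points. In shares of recovered reads in place of FPKM, the effectors took 21.3 ± 1.48% in the knockout and 7.58 ± 0.0822% in the controls (SD, n = 3 each), a smaller difference of 13.7 points, again with no overlap. An exact two-sided permutation test over the libraries gave p = 0.1, the smallest value that 3 against 3 can give. These are shares of transcript levels per length and say nothing of protein.

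**Figure D3:**
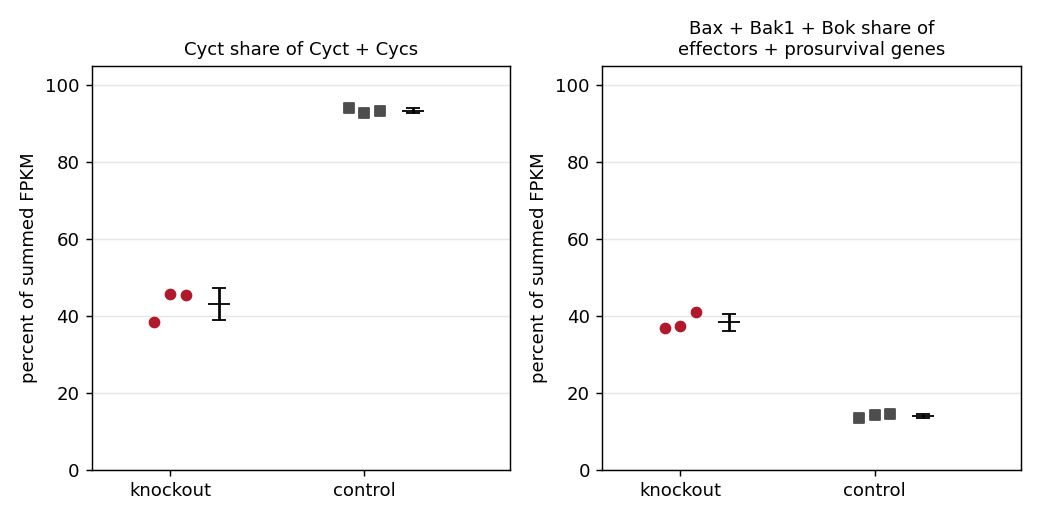
Share of Cyct in the cytochrome c transcripts (left) and share of Bax, Bak1 and Bok in the summed effector and prosurvival level (right), in percent of summed FPKM, 1 point for each library with mean and SD beside it. The knockout libraries lie at 38.3 to 45.7% on the left and at 36.7 to 40.9% on the right, the controls at 92.6 to 94.0% and at 13.4 to 14.4%.

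The BH3-only genes were divided as deposited, with 4 higher, 1 lower and 2 not called of 7 tested, against 36.2% higher and 50.4% lower of all genes. Under each of the other scalings 6 were higher and 1 lower, against 50.6% to 54.2% higher and 36.2% to 38.9% lower of all genes. Bid (ENSMUSG00000004446, chr6:120891930-120916853), which links death receptors to mitochondria when Casp8 cleaves it, had 7.72, 9.37 and 10.9 FPKM in the knockout libraries, against 0.954, 2.08 and 2.08 FPKM in the control libraries. It was 5.48-fold higher in the knockout, with a log2 fold change of 2.19 ± 0.25 (limma adjusted p = 5.8e-05) at the 97.3 percentile of all genes. Its 3′ end overlaps that of Bcl2l13 on the opposite strand by 628 exonic bases, which is 17.7% of the exonic bases of Bid. Bcl2l13 had about equal levels in both groups as deposited.

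Bmf, a sensor of the state of the cytoskeleton in other cell types, had 2.04, 2.27 and 2.83 FPKM in the knockout libraries, against 0.284, 0.536 and 0.340 FPKM in the control libraries. It rose by 1.70 ± 0.19 on the log2 scale (limma adjusted p = 5.4e-05, and 0.00032 without the filter). Bik had 4.33, 3.76 and 5.04 FPKM in the knockout libraries, against 1.06, 1.96 and 1.38 FPKM in the control libraries, with a log2 fold change of 1.33 ± 0.20 (limma adjusted p = 0.00031). Pmaip1, the Noxa gene and a known p53 target, had 3.18, 4.20 and 2.94 FPKM in the knockout libraries, against 1.66, 2.01 and 1.44 FPKM in the control libraries. Its rise was smaller, at 0.83 ± 0.17 (limma adjusted p = 0.0022). Hrk, known mainly from neurons, was below the filter, with 0.993, 0.775 and 0.791 FPKM in the knockout libraries, against 0.0526, 0.0402 and 0.0858 FPKM in the control libraries. In the fit without a filter its log2 fold change was 1.27 ± 0.14 (limma adjusted p = 0.00027), from 304 reads in the knockout and 12 in the controls.

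Bad (ENSMUSG00000024959, chr19:6941861-6951898), whose protein is switched off by survival kinases, was the BH3-only gene that fell. It had 5.13, 4.06 and 5.27 FPKM in the knockout libraries, against 22.8, 19.8 and 20.2 FPKM in the control libraries, a log2 fold change of -2.01 ± 0.12 (limma adjusted p = 1.6e-06). Bad was 15.9 ± 1.90% of the BH3-only sum in the knockout, where Bid led with 30.6 ± 3.42%, and 66.1 ± 3.77% in the controls, where it led. Exons of Gpr137 on the opposite strand cover 20.5% of the exonic bases of Bad, and Gpr137 averaged 5.96 FPKM in the knockout and 53.3 FPKM in the controls.

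Bbc3 and Bcl2l11, which encode the potent killers Puma and Bim, were not called. Bbc3, another known p53 target, had 2.44, 1.72 and 2.50 FPKM in the knockout libraries, against 2.81, 1.83 and 2.29 FPKM in the control libraries. Its log2 fold change was -0.046 ± 0.19 (limma adjusted p = 0.83), and it turned to values of 0.71 to 1.06, called higher, under the other 3 scalings. Bcl2l11 had 3.12, 2.998 and 2.87 FPKM in the knockout libraries, against 3.14, 3.61 and 2.52 FPKM in the control libraries. Its log2 fold change was -0.026 ± 0.15 (limma adjusted p = 0.87), and 0.76 to 1.10, called higher, under the others. For both, the ranges of the groups overlapped.

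Bcl2l14 (ENSMUSG00000030200, chr6:134396318-134438736), a Bcl2 relative known for its high level in testis, was nearly lost in the knockout. It had 0.0790, 0.0241 and 0.0118 FPKM in the knockout libraries, against 98.6, 90.7 and 96.1 FPKM in the control libraries. The knockout libraries held 10 reads in all, against 13771 in the controls, a level 2428-fold lower in the knockout per scaled read, with exact 95% bounds of 1320 and 5065 for counting error alone. The log2 fold change was -7.47 ± 0.10 (limma adjusted p = 1e-09, and 3.3e-08 without the filter), at the 1.83 percentile of all genes tested. Of the summed level of Bcl2l12, Bcl2l13 and Bcl2l14, the last made up 0.322 ± 0.303% in the knockout and 79.96 ± 1.89% in the controls.

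Bcl2l12, an atypical family member, fell as well, with 6.20, 6.20 and 5.72 FPKM in the knockout libraries, against 18.2, 15.3 and 21.03 FPKM in the control libraries and a log2 fold change of -1.50 ± 0.13 (limma adjusted p = 1.2e-05). Other genes cover 33.4% of its exonic bases, mostly Gm15545 on the opposite strand, which averaged 2.54 FPKM in the knockout and 2.02 FPKM in the controls. Irf3, whose span also overlaps that of Bcl2l12 on the opposite strand, averaged 11.9 FPKM in the knockout and 17.0 FPKM in the controls. The part of either in the Bcl2l12 level was not tested. Bcl2l13, a protein of the outer mitochondrial membrane with a role in mitophagy, had 5.55, 6.02 and 5.88 FPKM in the knockout libraries, against 5.38, 5.41 and 6.36 FPKM in the control libraries. It was not called as deposited, at 0.025 ± 0.11 (limma adjusted p = 0.84), and was called higher under the other scalings, at 0.68 to 1.18.

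**Figure D4:**
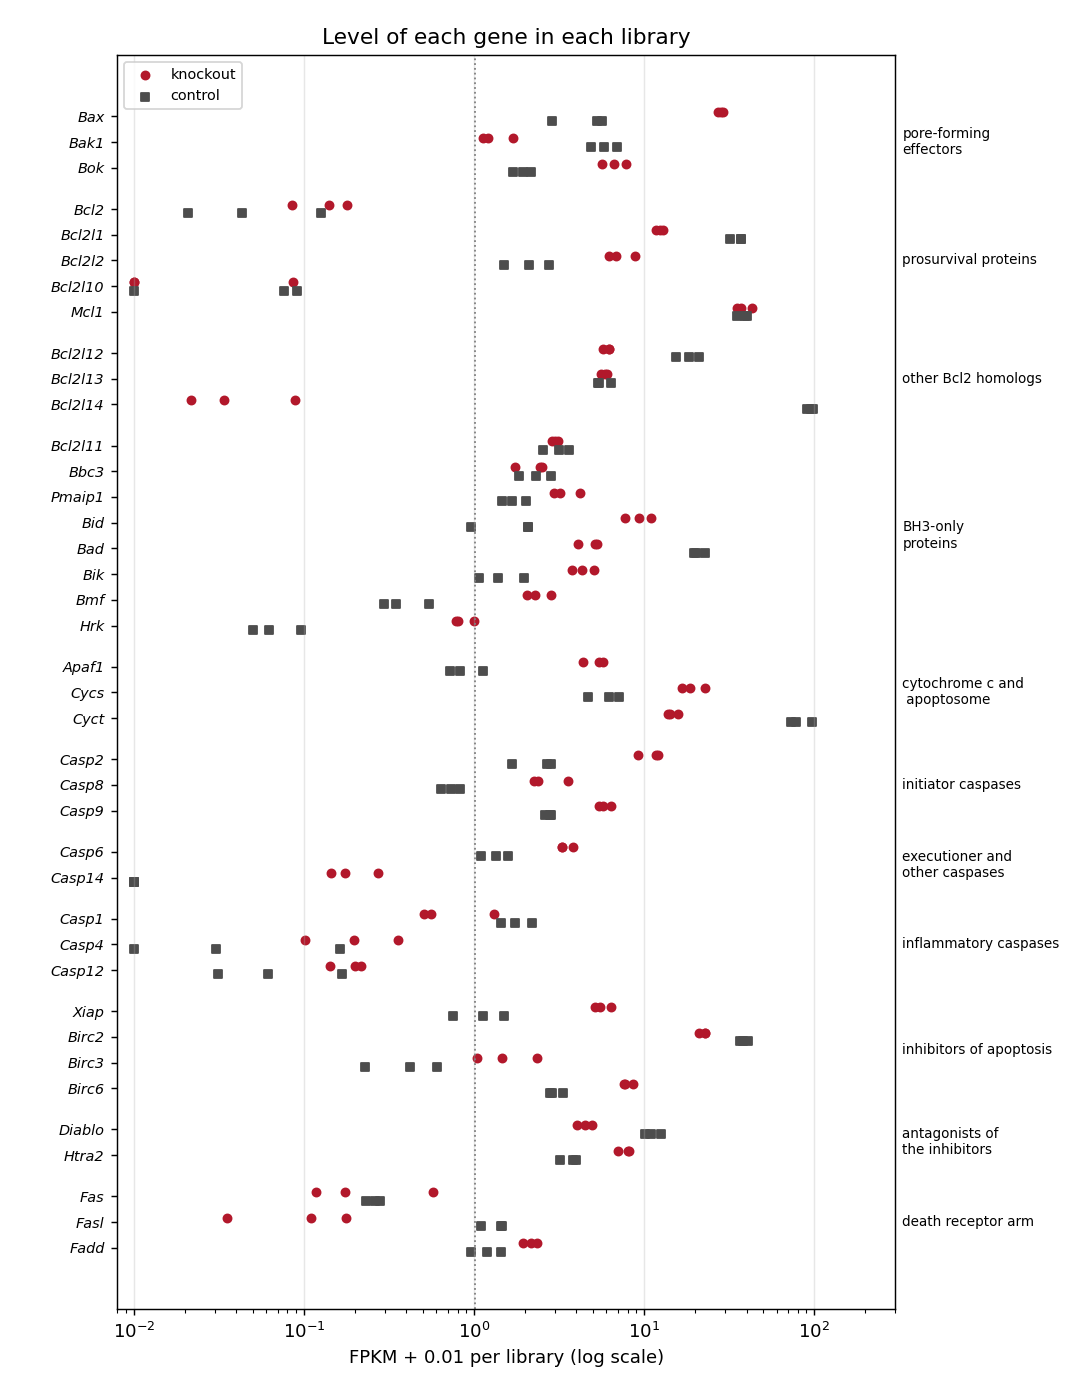
FPKM (plus 0.01, log axis) of the 39 genes in each of the 6 libraries, knockout as red circles and control as grey squares, by role; the dotted line marks 1 FPKM. Bcl2l14 spans the widest gap, and the 8 genes below the filter have means left of the line.

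Cyct and Cycs exchanged rank. Cyct (ENSMUSG00000056436, chr2:76353942-76360450) had 14.2, 15.8 and 13.9 FPKM in the knockout libraries, against 72.5, 78.3 and 97.2 FPKM in the control libraries, and Cycs (ENSMUSG00000063694, chr6:50562563-50566538) had 22.8, 18.7 and 16.7 FPKM in the knockout libraries, against 4.65, 6.22 and 7.13 FPKM in the control libraries. Cycs thus led in every knockout library, and Cyct in every control library. The log2 fold changes were -2.45 ± 0.12 for Cyct (limma adjusted p = 4.9e-07) and 1.62 ± 0.17 for Cycs (limma adjusted p = 4.4e-05), at the 26.0 and 89.5 percentiles of all genes. Cyct was 38.3, 45.7 and 45.3% of the summed cytochrome c level in the knockout libraries, against 94.0, 92.6 and 93.2% in the controls, a difference of -50.1 percentage points. An exact two-sided permutation test gave p = 0.1, the smallest possible.

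The 2 genes were told apart by sequence: no 50-base stretch of the Cyct transcripts occurs in transcripts of another gene, Cycs included. Of the 50-base stretches of Cycs, 26.1% occur in other annotated transcripts, mostly of Gm10053, so the level of Cycs depends on how reads that map to several places were treated, which is not given in the sources used here. All 12 pachytene and diplotene markers were lower in the knockout, as was Cyct, and their part in its fall was not tested. Cycs was highest in knockout replicate 1, as were the summed Sertoli and macrophage markers, whose part in its rise was not tested.

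Apaf1, the scaffold of the apoptosome, had 4.34, 5.69 and 5.45 FPKM in the knockout libraries, against 0.717, 1.12 and 0.818 FPKM in the control libraries. All knockout libraries were above all controls, and the log2 fold change was 2.03 ± 0.17 (limma adjusted p = 9.8e-06), at the 95.8 percentile. Apaf1 passed the filter through the knockout mean alone, and without the filter its limma adjusted p was 7.2e-05.

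All 3 initiator caspases rose, as did 36.2% of all genes tested as deposited. All 3 stayed higher under the other scalings, where 50.6% to 54.2% of all genes were higher. Casp2 (ENSMUSG00000029863, chr6:42264985-42282508), which is activated by DNA damage and by failed cell division, had 9.21, 11.7 and 12.03 FPKM in the knockout libraries, against 1.67, 2.69 and 2.82 FPKM in the control libraries. The log2 fold change was 2.01 ± 0.19 (limma adjusted p = 2.2e-05). Casp9, the caspase of the apoptosome, had 5.75, 5.43 and 6.39 FPKM in the knockout libraries, against 2.82, 2.61 and 2.80 FPKM in the control libraries and a smaller rise of 0.97 ± 0.12 (limma adjusted p = 8.3e-05). Casp8, the caspase of death receptors, had 3.55, 2.36 and 2.25 FPKM in the knockout libraries, against 0.723, 0.631 and 0.814 FPKM in the control libraries. Its log2 fold change was 1.38 ± 0.19 (limma adjusted p = 0.00021, and 0.00095 without the filter). In Casp8, knockout replicate 1 was the highest library, as it was for the summed macrophage and Sertoli markers. It was also the highest knockout library for Bok, Bcl2l2, Cycs, Birc3, Fadd and Hrk, which rose. The same held for Bak1, Birc2, Bcl2l14, Casp1 and Fasl, which fell as deposited. It held as well for Mcl1, Bcl2l10, Bcl2l11, Casp4 and Fas, which were not called as deposited. Bax, Bid and Apaf1 among others peaked in another knockout library. The part of Sertoli cells and macrophages in these levels was not tested.

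Casp6, an executioner caspase, rose, with 3.28, 3.80 and 3.27 FPKM in the knockout libraries, against 1.09, 1.34 and 1.57 FPKM in the control libraries and a log2 fold change of 1.11 ± 0.15 (limma adjusted p = 0.00019). Casp14, known from the epidermis, was listed at 0 in the control libraries and had 0.135, 0.165 and 0.262 FPKM in the knockout. Its 28 knockout reads correspond to a level at least 4.03-fold higher, the exact 95% lower bound for counting error alone, and the absolute level was low.

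The inflammatory caspases, which lie side by side on chromosome 9, gave no common direction. Casp1, which matures interleukins, had 1.30, 0.495 and 0.548 FPKM in the knockout libraries, against 1.73, 1.42 and 2.17 FPKM in the control libraries. It fell as deposited, with a log2 fold change of -0.87 ± 0.26 (limma adjusted p = 0.014, and 0.035 without the filter). No call was left under the other 3 scalings, and its sign turned, at 0.52, under quantile normalization. Leaving out knockout replicate 2, knockout replicate 3 or control replicate 3 also ended the call, at limma adjusted p of 0.054, 0.052 and 0.051. Casp4 (the mouse caspase-11 that senses bacterial lipopolysaccharide) had 0.349, 0.186 and 0.0911 FPKM in the knockout libraries, against 0, 0.0205 and 0.153 FPKM in the control libraries, and Casp12 had 0.132, 0.206 and 0.189 FPKM in the knockout libraries, against 0.0519, 0.159 and 0.0211 FPKM in the control libraries. Both overlapped between the groups and lay below the filter, with limma adjusted p of 0.14 and 0.13 without it. Knockout replicate 1 had the highest Casp1 and Casp4 of its group, and also the highest summed macrophage markers, at 329 FPKM, against 103 and 128 FPKM in the other 2 knockout libraries. Among the controls, Casp1 was lowest in replicate 2, at 1.42 FPKM, where the macrophage sum was highest, at 109.6 FPKM. Between the groups, Casp1 was lower in the knockout as deposited, while the macrophage markers had higher means. The part of macrophages in these levels was not tested.

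Of the inhibitors of apoptosis, 3 rose and 1 fell as deposited, against 36.2% higher and 50.4% lower of all genes. With rescaled FPKM and under quantile normalization, all 4 were called higher, as were 54.2% and 52.1% of all genes. Xiap, the direct inhibitor of caspases, had 5.15, 6.36 and 5.48 FPKM in the knockout libraries, against 0.747, 1.13 and 1.49 FPKM in the control libraries, with a log2 fold change of 1.95 ± 0.19 (limma adjusted p = 2.7e-05), at the 94.6 percentile. Birc6, a very large ubiquitin ligase, had 7.55, 7.69 and 8.56 FPKM in the knockout libraries, against 2.79, 3.33 and 2.85 FPKM in the control libraries and rose by 1.27 ± 0.12 (limma adjusted p = 1.8e-05). Birc3 had 2.33, 1.45 and 1.03 FPKM in the knockout libraries, against 0.219, 0.410 and 0.600 FPKM in the control libraries. Its log2 fold change was 1.19 ± 0.27 (limma adjusted p = 0.0038, and 0.012 without the filter). Its highest value was again in knockout replicate 1.

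Birc2, the cIAP1 gene and the most abundant of the group in both genotypes, had 22.9, 22.8 and 20.97 FPKM in the knockout libraries, against 40.7, 38.1 and 36.3 FPKM in the control libraries. It fell as deposited, with a log2 fold change of -0.77 ± 0.088 (limma adjusted p = 6e-05), but its direction turned under the other scalings, with 0.40 (called higher), 0.13 (not called) and 0.35 (called higher) for rescaled FPKM, rescaled reads and quantile normalization. Within the summed FPKM of the group in each library, Birc2 took 59.4 ± 1.10% of the sum in the knockout and 89.4 ± 1.88% in the controls, and Xiap took 15.1 ± 1.52% in the knockout and 2.64 ± 0.967% in the controls.

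The antagonists of the inhibitors parted. Diablo, also called Smac, had 4.49, 4.95 and 4.03 FPKM in the knockout libraries, against 12.5, 10.1 and 11.02 FPKM in the control libraries and fell, with a log2 fold change of -1.23 ± 0.12 (limma adjusted p = 3.1e-05), while rescaled FPKM gave -0.13, which was not called. Htra2, a mitochondrial protease, had 7.01, 8.05 and 8.16 FPKM in the knockout libraries, against 3.18, 3.98 and 3.80 FPKM in the control libraries and rose by 0.99 ± 0.13 (limma adjusted p = 0.00012). Other genes cover 40.9% of the exonic bases of Diablo and 43.7% of those of Htra2, so both values are uncertain. The largest partner of Htra2, Aup1, averaged 12.3 FPKM in the knockout and 20.9 FPKM in the controls.

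In the death receptor arm, Fadd, the adaptor that recruits Casp8, had 2.34, 1.94 and 2.15 FPKM in the knockout libraries, against 0.944, 1.19 and 1.43 FPKM in the control libraries and rose by 0.65 ± 0.17 (limma adjusted p = 0.006). Fas, the receptor, had 0.564, 0.165 and 0.107 FPKM in the knockout libraries, against 0.221, 0.254 and 0.270 FPKM in the control libraries, with overlap and a limma adjusted p of 0.96 without the filter. Its ligand Fasl had 0.167, 0.0255 and 0.0997 FPKM in the knockout libraries, against 1.44, 1.45 and 1.09 FPKM in the control libraries. Fasl was lower in every knockout library, with 12 reads in the knockout and 91 in the controls, and a log2 fold change of -1.61 ± 0.18 (limma adjusted p = 0.00028) in the fit without a filter.

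A wider list of 62 further genes of apoptosis and related cell death, chosen for their place in the pathway, was also divided. Of its 45 genes tested, 23 rose, 16 fell and 6 were not called, against the same 36.2% higher and 50.4% lower of all genes, with a median log2 fold change of 0.36. Its called genes split into 31 higher and 9 lower with rescaled FPKM (54.2% and 36.2% of all genes). They split into 29 and 12 with rescaled reads (50.6% and 38.9%), and 29 and 10 under quantile normalization (52.1% and 36.8%). Without a filter, 26 rose and 19 fell of 62, against 21.6% higher and 32.8% lower of all genes. Those that rose included Bnip3, a mitophagy receptor, with 22.7 ± 1.80 FPKM in the knockout and 5.73 ± 0.515 FPKM in the controls, Aifm1, a mitochondrial flavoprotein that can move to the nucleus, with 13.6 ± 1.33 FPKM in the knockout and 2.55 ± 0.738 FPKM in the controls, and Bcap31, a caspase substrate of the endoplasmic reticulum, with 60.2 ± 6.16 FPKM in the knockout and 12.9 ± 3.94 FPKM in the controls (SD, n = 3 each). Their log2 fold changes were 1.90 for Bnip3, 2.24 for Aifm1 and 2.22 for Bcap31.

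Among those that fell, the 4 with the smallest p were Bag5, Bag6, Bag3 and Aven. The Bag genes encode cochaperones of Hsp70, and of the 5 on the list Bag1 also fell while Bag4 rose, with log2 fold changes of -2.18 and 0.50 (limma adjusted p = 3e-07 and 0.0035). Bag5 had 5.27 ± 1.04 FPKM in the knockout and 362 ± 29.3 FPKM in the controls, Bag6 had 42.99 ± 1.12 FPKM in the knockout and 293 ± 31.03 FPKM in the controls and Bag3 had 3.34 ± 0.346 FPKM in the knockout and 25.9 ± 1.84 FPKM in the controls. Aven, which binds Bcl-xL and Apaf1, had 1.61 ± 0.174 FPKM in the knockout and 36.8 ± 3.66 FPKM in the controls (SD, n = 3 each). The log2 fold changes were -5.99 for Bag5, -2.75 for Bag6, -2.79 for Bag3 and -4.15 for Aven, and all 7 of these named genes kept their calls under the 4 scalings.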

How the data were processed

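The submitters' processing notes name HISAT2 2.0.5 as the aligner and mm10 as the build. How reads were counted, with which annotation and strand setting, and what was done with multiply mapping reads, is not given in the sources used here. The authors deposited FPKM values for 54532 genes in 3 knockout and 3 control libraries. Multiplied by the deposited gene length, nonzero values were whole multiples of 1 read in 100% of cases (tolerance 0.01 read). The divisor of each library was a size factor, the median of its ratios to the gene-wise geometric mean over 19526 genes, and not its total. Between replicates, the chi-square per gene was 7.55 to 14.7, above sampling noise.

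Genes averaging 1 FPKM or more were tested with limma 3.58.1 in R 4.3.3 (two-sided) on log2(FPKM + 0.5), knockout minus control, with a mean-variance trend, moderated standard errors and Benjamini-Hochberg adjustment over all genes tested (threshold 0.05). Shares within a library were compared with an exact permutation test (scipy 1.17.1). Intervals and floors of reads cover counting error only. On simulated libraries of knockout against control with 15272 genes tested, 87% of 100 genes changed 2-fold and 99.0% of 97 changed 4-fold were recovered. The simulated libraries of both groups were drawn from the control means with a common dispersion, scaled by their totals, and few genes were changed. In the data 86.6% of genes tested were called, so these rates need not carry over. All 39 members are named; of the wider list, the 4 with the smallest p in each direction, of which 1 is not reported here. Members and lists were chosen with earlier results of these data known. Alternatives were other pseudocounts, filters and scalings, limma voom on the recovered reads (with trimmed-mean factors), the replicate number as a block, and leaving out each library. All 39 gene identifiers were in GENCODE M21, 36 with the same coordinates, and exon overlaps and shared 50-base stretches were computed there.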

Additional observations from a re-analysis of the deposited data

How the results depend on the processing

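With other pseudocounts (0.1 and 1) and without a filter, all 31 members tested kept their direction and their side of the threshold, and with limma voom 29 did. A filter at 5 FPKM tests fewer genes and gave 3227 higher and 5320 lower of 9583, with a median log2 fold change of -0.64 over all genes. It gave 6 members higher and 7 lower of 15 (median 0.014, against 0.97 at 1 FPKM). The wider list gave 12 higher and 15 lower of 28 (median -0.60, against 0.36). More fell than rose in both lists, as over all genes. Of the wider list, 9 were lower with rescaled FPKM and 10 with quantile normalization, against 36.2% and 36.8% of all genes. Log2 fold changes that turned sign were those of Bcl2l11 (1.10 with rescaled FPKM, 0.76 with rescaled reads, 0.77 under quantile normalization, 0.19 with voom), Bbc3 (1.06, 0.71, 0.97 and 0.17 in the same order), Birc2 (0.40, 0.13 and 0.35 in the first 3) and Casp1 (0.52 under quantile normalization); the cause was not tested beyond the scaling itself. Leaving out each library gave -0.072 to 0.077 for Mcl1, -0.013 to 0.098 for Bcl2l13, -0.15 to 0.078 for Bcl2l11 and -0.17 to 0.093 for Bbc3, values that none of these fits called. Each of those fits called 18 members higher and 8 or 9 lower. In recovered reads in place of FPKM, the difference in share was -59.9 points for Cyct and 13.7 points for the effectors.

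Replicate numbers did not pair the libraries: deviations of same-numbered libraries correlated at -0.12, -0.053 and -0.040, and not every library correlated best with its own number. The fit with the replicate block called 18 members higher and 9 lower, as without it, and 5930 genes higher and 8364 lower in all. Depth limits Bcl2l10 (2 reads in each group), Casp14, Hrk, Bcl2l14, Fasl, Casp4 and Casp12, whose lower group held 0 to 12 reads.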

Other observations

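Some of the genes lie next to each other and differed in fold change. On chromosome 9 in mm10, Birc2 (chr9:7818227-7837064) and Birc3 (chr9:7848699-7873186) are neighbours on the minus strand. Their log2 fold changes differed, at -0.77 for Birc2 and 1.19 for Birc3 as deposited, and Birc3 lay above Birc2 under each of the 4 scalings. With rescaled FPKM and under quantile normalization both were called higher. On chromosome 6, Bid and Bcl2l13 meet tail to tail, with log2 fold changes of 2.19 and 0.025 as deposited, where Bcl2l13 was not called. Under the other scalings both were called higher, at 2.97 to 3.52 for Bid and 0.68 to 1.18 for Bcl2l13. Within 50-base stretches, 1.42% of Birc2 was shared with Birc3, so reads of the pair can largely be told apart.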
